A study of Mus musculus with 28 samples.

Results

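The amygdala transcriptomes of 28 female C57BL/6J mice were examined for 9 genes listed for pallial excitatory neurons. These are the glutamatergic projection neurons of the basolateral amygdala and its cortical neighbours. The genes, chosen by symbol for their known place in these neurons, were Slc17a7, Slc17a6, Camk2a, Neurod2, Neurod6, Tbr1, Rspo2, Nrn1 and Etv1. They are 9 of the 49477 genes listed for both batches of mice, and all 9 were among the 16266 genes that passed the filter on low counts. Mice had been bought at 7 weeks of age and had free choice between bottles for 28 days. Water mice (n = 10) drank water only, Acute mice (n = 9) were offered 20% ethanol once, on day 28, and Chronic mice (n = 9) were offered it every other day through the 28 days. Tissue was taken on day 29. Each library came from punches of both sides of 1 mouse that took in the basolateral and the central amygdala together, so the excitatory neurons were not isolated from the cells around them.

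Pallial excitatory neurons release glutamate, and the basolateral amygdala contains a large population of them that carries information about threat and reward to the central amygdala, the striatum and the cortex. Glutamate is loaded into synaptic vesicles by the vesicular glutamate transporters, of which Slc17a7 (VGLUT1) prevails in cortical and basolateral neurons and Slc17a6 (VGLUT2) in thalamic, hypothalamic and some amygdalar neurons. The central amygdala and the striatum consist mostly of GABAergic neurons, which lack these transporters. The identity of pallial neurons is set during development by transcription factors such as Neurod2, Neurod6 and Tbr1.

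The mice formed 2 independent batches, the first with 4 mice of Water, 4 of Acute and 3 of Chronic, the second with 6, 5 and 6. Total counts ran from 20004380 to 22569562 per mouse, with medians of 20184480 (Water), 20361343 (Acute) and 20864334 (Chronic). Levels between groups are given as CPM, the count of a gene relative to the scaled size of its library, and fold changes come from a model with batch as a covariate. CPM is a share of each library's RNA. Fewer cells of a type in a punch and less RNA per cell cannot be told apart with it. The labels give 1 library per mouse, so p-values measure the spread between mice. The label of the tissue was checked with marker lists of the cells that a punch could hold. Of 6 pan-neuronal, 6 GABAergic and 6 central amygdala genes all passed the filter, whereas of 6 hypothalamic genes only Nkx2-1 did, and Sim1, Otp, Nr5a1, Fezf1 and Hmx2 were below it. Of 6 hippocampal genes 4 passed, and Lct and Iyd were below it. The lists of neighbouring structures passed in full, with 7 of 7 striatal, 6 of 6 thalamic, 6 of 6 claustral and deep cortical and 6 of 6 choroid plexus genes. The summed choroid plexus genes ran from 12.4 to 4300 CPM between mice. Passing the filter does not tell how much of a tissue a punch held. Mean levels over all mice ran from 44.8 to 301 CPM in the striatal genes and from 1.95 (Slitrk6) to 41.0 (Ntng1) in the thalamic genes, beside 4.34 in Nkx2-1. Of 6 oligodendrocyte genes 5 were used, as Opalin was not listed for both batches.

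Promoter sequences of 4 of the genes are shown because Slc17a7, Neurod2, Neurod6 and Tbr1 were among the genes that moved together between punches, as described further on. RefSeq (GRCm38.p6) gave an entry for 6 of the 9 genes, the other entries being those of Slc17a6 and Etv1; Camk2a, Rspo2 and Nrn1 had none. Each sequence is the 250 bases before the RefSeq start site, read along the gene's strand, from chr7:45163671-45163920 (plus strand) for Slc17a7, chr11:98329646-98329895 (minus strand) for Neurod2, chr6:55681264-55681513 (minus strand) for Neurod6 and chr2:61804203-61804452 (plus strand) for Tbr1. Capitals mark the E-box CANNTG, a palindromic motif read by basic helix-loop-helix factors, the class to which Neurod2 and Neurod6 belong.
Slc17a7: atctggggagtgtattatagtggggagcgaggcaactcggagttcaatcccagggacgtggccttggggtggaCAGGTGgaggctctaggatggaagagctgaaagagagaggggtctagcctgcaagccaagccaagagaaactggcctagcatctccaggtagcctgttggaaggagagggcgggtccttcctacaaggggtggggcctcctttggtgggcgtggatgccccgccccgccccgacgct
Neurod2: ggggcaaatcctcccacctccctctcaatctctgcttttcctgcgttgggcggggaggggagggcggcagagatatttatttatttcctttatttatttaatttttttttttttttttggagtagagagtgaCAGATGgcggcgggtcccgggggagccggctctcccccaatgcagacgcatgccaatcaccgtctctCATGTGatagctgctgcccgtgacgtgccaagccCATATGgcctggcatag
Neurod6: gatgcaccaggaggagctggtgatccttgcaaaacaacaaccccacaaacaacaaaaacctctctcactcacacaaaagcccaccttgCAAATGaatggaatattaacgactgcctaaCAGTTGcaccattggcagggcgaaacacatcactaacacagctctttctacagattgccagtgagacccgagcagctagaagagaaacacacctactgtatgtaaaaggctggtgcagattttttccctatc
Tbr1: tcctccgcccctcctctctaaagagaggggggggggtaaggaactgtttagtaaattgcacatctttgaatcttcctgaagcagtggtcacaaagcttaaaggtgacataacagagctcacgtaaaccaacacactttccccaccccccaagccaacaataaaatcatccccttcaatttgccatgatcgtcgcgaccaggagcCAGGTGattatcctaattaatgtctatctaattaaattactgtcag
Counting back from the start site, the Slc17a7 window held CAGGTG at -177 and the Tbr1 window CAGGTG at -46. The Neurod2 window held CAGATG at -118, CATGTG at -51 and CATATG at -17, and the Neurod6 window CAAATG at -162 and CAGTTG at -132. The motif is common: 66.2% of 32851 promoters of this length held CANNTG on either strand, and 14.4% held CAGATG, the form preferred by NeuroD factors, or its reverse complement CATCTG. The windows of Slc17a7 and Neurod2 had GC contents of 61.2% and 52.8%, and those of Neurod6 and Tbr1 46.0% and 45.2%, beside a median of 52.4% over all promoters.

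In Water mice the 9 genes spanned a wide range of transcript abundance when levels were expressed per length, as TPM, the share of a gene in all transcripts after division by the length of the union of its exons. Camk2a was highest, with 1203 ± 114 TPM (SD, n = 10 mice), which put it at rank 45 of 16266 genes. Slc17a7 followed with 741 ± 106 TPM, rank 90. Both lay far above the next gene, and no Water mouse had values of these genes that overlapped with those of another member. Nrn1 (neuritin, a membrane-anchored protein that promotes neurite growth and synapse maturation) had 175 ± 40.7 TPM and Neurod6 112 ± 13.2 TPM. The remaining transcription factors were in the middle of the range. Neurod2 had 64.9 ± 15.4 TPM, Etv1 61.2 ± 9.72 TPM and Tbr1 47.1 ± 9.39 TPM. Neurod6 was above Neurod2 in 10 of 10 Water mice although their ranges overlapped, whereas Neurod2 was above Etv1 in only 6 of 10 and Etv1 above Tbr1 in 8 of 10, so the order of these 3 was not separated from the spread between mice. At the bottom were Slc17a6 with 20.9 ± 3.98 TPM (rank 6056) and Rspo2 with 18.3 ± 2.94 TPM (rank 6602), Slc17a6 being the higher in 7 of 10 mice. These levels assume that every exon is used, and exons of Nrn1 overlap exons of Fars2 on the opposite strand.

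**Figure D1:**
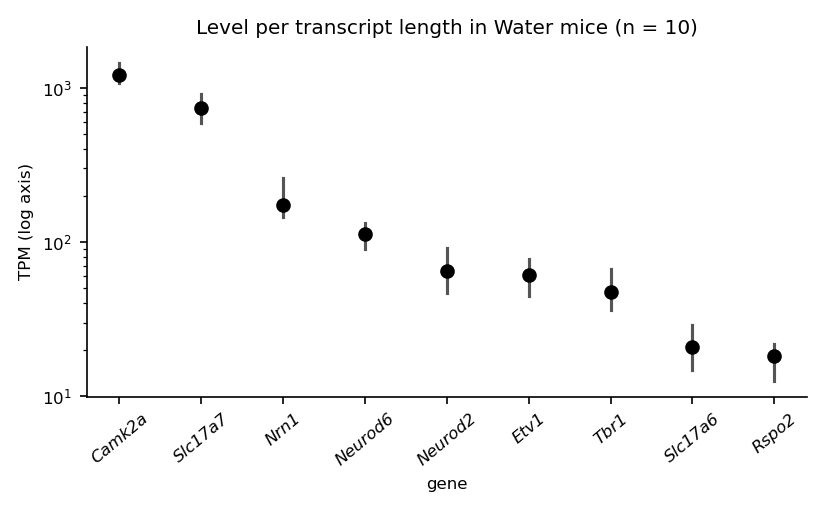
Level per length (TPM, log axis) of the 9 genes in the 10 Water mice, with a point for the mean and a bar from the lowest to the highest mouse. Camk2a and Slc17a7 stand above the other 7 genes, and Slc17a6 and Rspo2 are lowest, at 20.9 and 18.3 TPM.

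Neither vesicular glutamate transporter differed between the drinking groups beyond the spread between mice. Slc17a7 (ENSMUSG00000070570, chr7:45163949-45176142 of GRCm38, plus strand) ran from 998.6 to 1539 CPM with a median of 1233 in Water mice, 792 to 1542 with a median of 1288 in Acute mice and 933 to 1573 with a median of 1403 in Chronic mice. The 3 groups overlapped over most of their range, and the lowest value was that of 1 Acute mouse, number 33 of the first batch. The log2 difference from Water was -0.061 ± 0.10 (SE) in Acute and 0.046 ± 0.10 in Chronic mice, with adjusted p of 0.88 and 0.91 in edgeR's quasi-likelihood test. Slc17a6 (ENSMUSG00000030500, chr7:51622006-51671119, plus strand) ran from 26.7 to 50.4 CPM (median 36.8) in Water mice, 24.3 to 64.4 (median 35.2) in Acute mice and 27.0 to 83.0 (median 34.4) in Chronic mice. Its medians were close together while its upper ends differed, and the values that reached above every Water mouse came from the second batch. Its mean difference from Water was 0.10 ± 0.17 in Acute and 0.18 ± 0.17 in Chronic mice on the log2 scale (edgeR adjusted p of 0.88 and 0.74). The 95% interval of the Chronic change, from 0.894-fold to 1.44-fold, was the widest upwards of the 9 genes in that comparison.

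Camk2a (ENSMUSG00000024617, chromosome 18, plus strand) encodes the alpha subunit of calcium/calmodulin-dependent kinase II, an abundant postsynaptic enzyme needed for synaptic potentiation. It ran from 2626 to 3404 CPM (median 2834) in Water mice, 2089 to 3084 (median 2878) in Acute mice and 2326 to 3126 (median 3021) in Chronic mice. The groups overlapped, and the difference from Water was -0.080 ± 0.065 in Acute and 0.0095 ± 0.065 in Chronic mice on the log2 scale (edgeR adjusted p of 0.71 and 0.98). As the least variable of the 9 genes it gave the narrowest intervals, from 0.863-fold to 1.04-fold (Acute) and from 0.918-fold to 1.104-fold (Chronic). Between Chronic and Acute mice the log2 difference was 0.089 ± 0.067, and without Chronic mouse 38 of the first batch it was 0.13 with an unadjusted p of 0.0450.

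Of the transcription factors, Neurod2 (ENSMUSG00000038255, chr11:98325415-98329648, minus strand) is a basic helix-loop-helix factor of postmitotic excitatory neurons. It ran from 46.8 to 90.3 CPM (median 60.8) in Water mice, 33.4 to 78.2 (median 59.0) in Acute mice and 48.3 to 85.9 (median 70.5) in Chronic mice. With a log2 difference of -0.20 ± 0.14 between Acute and Water (edgeR adjusted p = 0.66) and of 0.22 ± 0.15 between Chronic and Acute mice (adjusted p = 0.998), it had the largest estimates among the 9 genes in these comparisons, and its groups overlapped all the same. Neurod6 (ENSMUSG00000037984, chr6:55677822-55681263, minus strand), its close relative in the same cells, ran from 62.9 to 94.8 CPM (median 77.2) in Water mice, 52.9 to 91.0 (median 79.2) in Acute mice and 52.9 to 91.5 (median 80.0) in Chronic mice, with log2 differences from Water of -0.041 and 0.0058. Tbr1 (ENSMUSG00000035033, chr2:61802930-61814114, plus strand), a T-box factor of early-born pallial neurons, ran from 64.0 to 122 CPM (median 78.1) in Water mice, 39.1 to 91.8 (median 77.2) in Acute mice and 45.0 to 95.1 (median 83.6) in Chronic mice. Its highest value was in a Water mouse and its lowest in an Acute mouse, yet the medians lay within the range of every group, and the log2 differences from Water were -0.16 ± 0.12 and -0.094 ± 0.12. Etv1 (ENSMUSG00000004151, chr12:38779380-38870484, plus strand), an ETS-family factor of subsets of projection neurons, ran from 189 to 334 CPM (median 268) in Water mice, 217 to 301 (median 263) in Acute mice and 240 to 294 (median 269) in Chronic mice, with log2 differences of 0.017 and 0.022.

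The secreted and membrane-anchored members were Rspo2 and Nrn1. Rspo2 (ENSMUSG00000051920, chr15:43020794-43170826, minus strand), an R-spondin that strengthens Wnt signalling through Lgr receptors and is used as a marker of a basolateral amygdala population, ran from 20.3 to 34.9 CPM (median 32.0) in Water mice, 24.2 to 39.4 (median 32.1) in Acute mice and 19.1 to 37.5 (median 32.8) in Chronic mice. Its medians were nearly equal, and its log2 difference from Water was 0.14 ± 0.093 in Acute mice (edgeR adjusted p = 0.64, the smallest of the 9 genes) and 0.024 ± 0.093 in Chronic mice. Without Water mouse 41 of the first batch the Acute difference of Rspo2 was 0.19, with an unadjusted p of 0.0462 and an adjusted p above the threshold. Nrn1 (ENSMUSG00000039114, chr13:36725361-36735131, minus strand) ran from 104 to 190 CPM (median 114) in Water mice, 81.5 to 160 (median 125) in Acute mice and 98.6 to 163 (median 136) in Chronic mice. The median of Nrn1 was lowest in Water, while its highest single value was that of a Water mouse. The log2 differences from Water were -0.050 ± 0.12 and 0.089 ± 0.12.

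**Figure D2:**
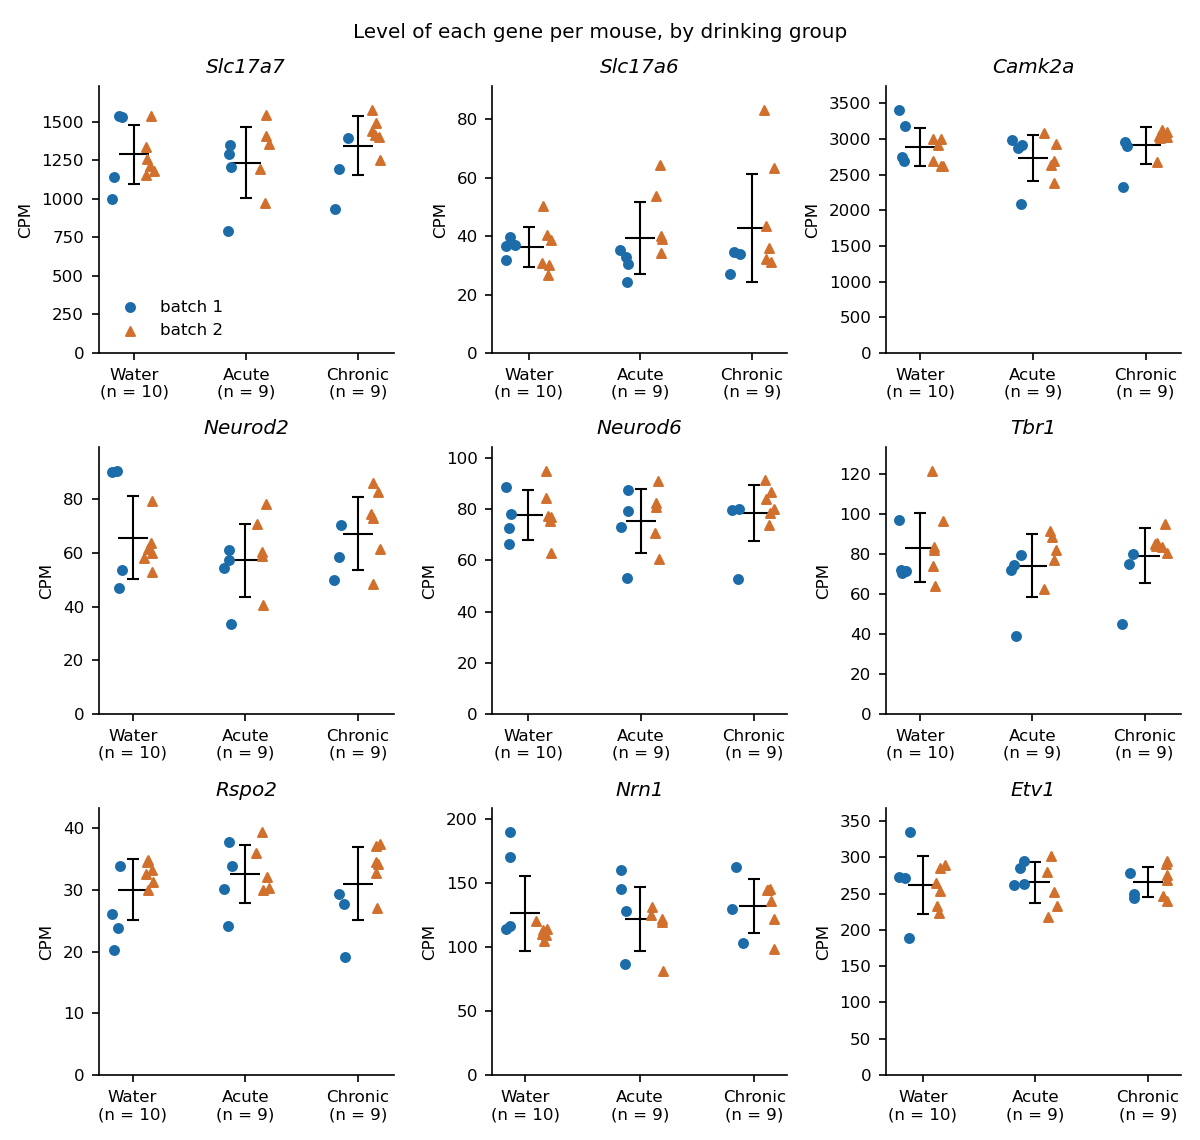
CPM of the 9 genes in each mouse, 1 panel a gene, with Water, Acute and Chronic mice side by side, symbols for the batches and bars for the group mean ± SD. The groups overlap in every panel, and Slc17a6 has the widest spread upwards in Acute and Chronic mice, to 64.4 and 83.0 CPM.

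In none of the 3 comparisons did any of the 9 genes pass a threshold of 0.05 on the adjusted p, nor did any have an unadjusted p under 0.05. This held in edgeR, in DESeq2, in limma-voom and after batch adjustment with ComBat-seq followed by DESeq2. Across all 16266 genes, edgeR called 0% in Acute against Water, 0.0184% (3 genes) in Chronic against Water and 0% in Chronic against Acute. The shares of all genes with an unadjusted p under 0.05 were 9.52%, 10.5% and 4.44%, so a count of 0 among 9 genes is not set apart from this background. Over all genes, in the order Acute against Water, Chronic against Water and Chronic against Acute, DESeq2 called 9, 38 and 0, limma-voom 3, 2 and 1, and DESeq2 after ComBat-seq 30, 88 and 0. In Acute mice 3 of the 9 genes were above and 6 below Water, with a median log2 difference of -0.050 beside 0.0011 over all genes. In Chronic mice 8 were above and 1 below, with a median of 0.022 beside 0.0022. Against Acute mice, which enter the first of these comparisons too, Chronic mice had 8 genes above and 1 below, with a median of 0.080 beside -0.00089. All of these are estimates within the spread between mice. Exact permutation tests of the single genes, two-sided and within batch, gave p from 0.198 to 0.809 for Acute, from 0.445 to 0.977 for Chronic and from 0.180 to 0.916 for Chronic against Acute. The 95% intervals of the fold changes of the 9 genes lay between 0.710 and 1.36 for Acute, between 0.790 and 1.44 for Chronic and between 0.805 and 1.43 for Chronic against Acute mice, so changes beyond these sizes were outside the interval of every member.

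**Figure D3:**
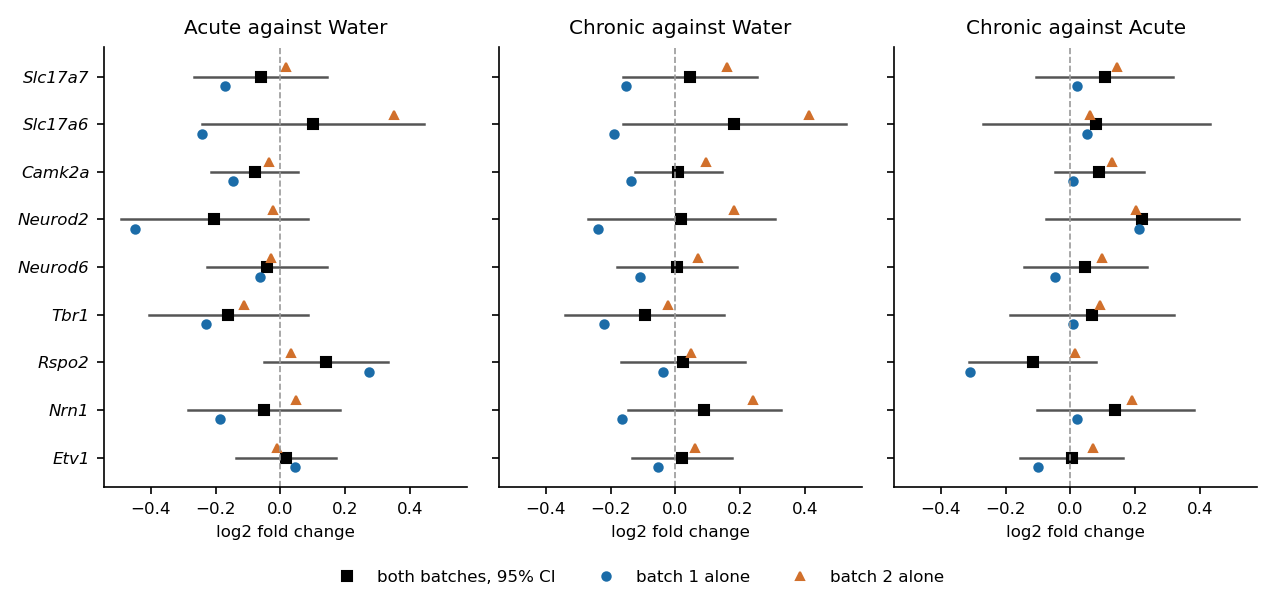
Log2 fold change of the 9 genes with its 95% interval, for Acute against Water, Chronic against Water and Chronic against Acute, beside the estimates within each batch alone. The interval of every gene in every comparison contains 0, and the estimates over both batches run from -0.20 to 0.22.

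The batches did not give the same directions. In the first batch alone, 2 of the 9 genes were above Water in Acute and 0 in Chronic mice, whereas in the second 4 and 8 were. Only 1 of the 9 genes, Tbr1, had the same sign in both batches for Chronic against Water, and 5 did for Acute against Water. Within the second batch alone, 1 member had an unadjusted p under 0.05 in Chronic against Water (Nrn1, log2 difference 0.24, p = 0.0257) and 1 in Chronic against Acute (Camk2a, 0.13, p = 0.0402). Slc17a6 had the largest difference of effect between batches: its Acute effect was -0.24 in the first and 0.35 in the second batch, and its Chronic effect -0.19 and 0.41. A test of the difference itself gave 0.59 (unadjusted p = 0.080) and 0.60 (p = 0.084) on the log2 scale, with edgeR adjusted p of 0.999 and 0.849. Over the 9 genes the difference between batches passed the threshold in 0 cases in edgeR, and no unadjusted p was under 0.05. Over all genes 0% and 0.00615% (1 gene) were called for the Acute and Chronic effects, and 4.13% and 6.15% had an unadjusted p under 0.05.

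Neighbouring genes of the same neurons and of the same families were read beside the members. Of 14 further genes of pallial excitatory neurons, none was called by edgeR in any comparison. In Acute against Water 11 of the 14 were lower and 3 higher, with a median log2 difference of -0.093, and 2 had an unadjusted p under 0.05. Among those with the smallest p were the neuronal pentraxin Nptx1 with a log2 difference of -0.25 (edgeR adjusted p = 0.50) and the deep-layer factor Fezf2 with -0.21 (adjusted p = 0.53). In Chronic against Water 10 of the 14 were lower, with a median of -0.042 and 0 unadjusted p under 0.05, and among those with the smallest p were the inositol kinase Itpka (0.11) and the calmodulin-binding protein Nrgn (0.082). In Chronic against Acute 12 of the 14 were higher, with a median of 0.075 and 0 under 0.05, led by Neurod1 (0.40), Emx1 (0.19) and Fezf2 (0.17). Over all genes 50.6% were higher in Acute against Water, 51.0% in Chronic against Water and 49.4% in Chronic against Acute. In the same order, 9.52%, 10.5% and 4.44% of all genes had an unadjusted p under 0.05. The counts of 2, 0 and 0 of 14 are not set apart from these shares.

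Of 19 genes from the families and pathways of the members, 15 passed the filter, and Neurog2, Eomes, Tbx21 and Rspo4 were below it. None was called by edgeR in any comparison. Camk2g, the gamma subunit of the kinase that Camk2a belongs to, had the smallest p of this list in both drinking groups, with log2 differences of 0.14 in Acute (unadjusted p = 0.00095, edgeR adjusted p = 0.34) and 0.13 in Chronic mice (unadjusted p = 0.0016, adjusted p = 0.22). After ComBat-seq, DESeq2 called it in Chronic against Water (adjusted p = 0.0333). These comparisons share the Water mice. Next came Znrf3, a ubiquitin ligase that removes Wnt receptors and is opposed by R-spondins, with -0.13 and -0.12. The third gene was Nrn1l, the paralogue of Nrn1, with 0.39 in Acute mice (unadjusted edgeR p = 0.071), and Rspo1 with 0.62 in Chronic mice. Both were near the floor, with mean counts of 12.5 and 35.1 beside a filter of 10. In Chronic against Acute mice the smallest p were those of Nrn1l (-0.35), of the third vesicular glutamate transporter Slc17a8 (-0.24) and of the receptor Lgr6 (-0.13). The medians of this list were 0.022, 0.0055 and 0.0090, with 2, 2 and 0 of 15 genes under an unadjusted p of 0.05. Over all genes the shares under 0.05 were 9.52%, 10.5% and 4.44%, so these counts are not set apart from the background.

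The 9 genes varied more from mouse to mouse than most. With batch removed, the SD of the log2 level ran from 0.153 in Camk2a, 0.172 in Etv1, 0.209 in Neurod6 and 0.220 in Rspo2 over 0.235 in Slc17a7, 0.271 in Nrn1 and 0.290 in Tbr1 to 0.340 in Neurod2 and 0.375 in Slc17a6. All lay above the median of all genes, 0.1399. This spread was shared. Of the 36 pairs of members, 35 had a positive Pearson r over the 28 mice with batch means removed, with a median r of 0.506 beside -0.001 over all pairs of tested genes. An r above 0.5 was found in 18 of the 36 pairs (50%) and in 2.3% of all pairs. After Benjamini-Hochberg adjustment over 153 relations (36 pairs and 117 relations of the members to the cell-type lists below), 20 pairs passed by Pearson's r and 21 by Spearman's rho, in permutation tests within batch. The first principal component of the 9 genes carried 61.6% of their variance.

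The shared variation lay in 6 of the 9 genes, grouped after their values were seen: Slc17a7, Camk2a, Neurod2, Neurod6, Tbr1 and Nrn1. All 15 pairs among them passed, with r from 0.634 to 0.930, rho from 0.534 to 0.910 and adjusted p from 6.37e-05 to 0.00284 in permutation tests. Within the first batch their r ran from 0.729 to 0.974, within the second from 0.498 to 0.870, and without the 2 mice farthest from the median of each first-named gene from 0.448 to 0.885. The closest pair was Slc17a7 and Nrn1, with r = 0.930 and rho = 0.910 (permutation p = 1e-05 for each, the smallest that 100000 resamples could give; adjusted p = 6.37e-05). This pair had r = 0.974 and 0.859 in the first and second batch and 0.885 without the 2 farthest mice, both of them Acute mice. Slc17a7 and Camk2a had r = 0.925 and rho = 0.886, with 0.965 and 0.856 in the batches. The pair with the lowest r was that of the relatives Neurod2 and Neurod6, with r = 0.634, rho = 0.592 and an adjusted permutation p of 0.00284.

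The other 3 genes followed less. Over the 21 pairs that include Slc17a6, Rspo2 or Etv1, r ran from -0.129 to 0.620 with a median of 0.348, and 5 passed. Neurod6 and Rspo2 had r = 0.620 (rho = 0.576, adjusted permutation p = 0.0045), with 0.619 and 0.662 in the batches. Etv1 passed with Nrn1 (r = 0.538, rho = 0.536), with Slc17a7 (r = 0.524, rho = 0.542) and with Rspo2 (r = 0.489, rho = 0.412), the adjusted permutation p being 0.0145, 0.0189 and 0.0335 by Pearson's r and 0.0113, 0.0104 and 0.0593 by Spearman's rho, so that the last pair passed by r alone. Etv1 passed by rho alone with Camk2a (rho = 0.466, adjusted permutation p = 0.0351 by rho and 0.125 by r) and with Neurod2 (rho = 0.441, adjusted permutation p = 0.0483 by rho and 0.0769 by r). Slc17a6 passed with Nrn1 only (r = 0.477, rho = 0.487, adjusted permutation p = 0.0081). The transporters did not pass with each other. Slc17a7 and Slc17a6 had r = 0.271 and rho = 0.270 (permutation p = 0.108 and 0.148), and r was 0.673 within the first batch and 0.156 within the second. Slc17a6 and Rspo2 were the only pair with a negative r, -0.129 (rho = -0.113, permutation p = 0.394 and 0.540).

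**Figure D4:**
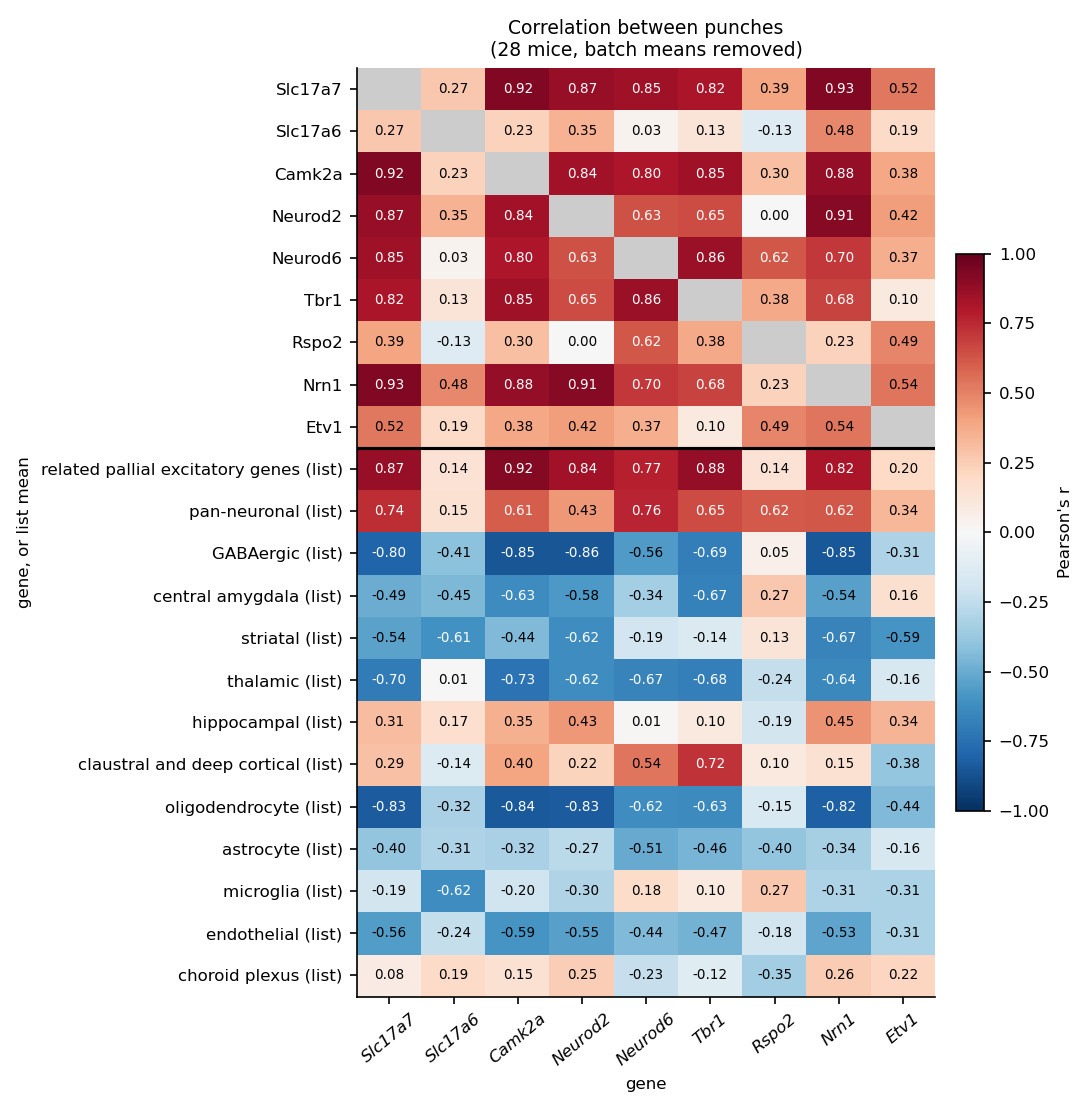
Pearson r over 28 mice, batch means removed, between the 9 genes (upper grid) and between these genes and the means of 13 marker lists (lower grid), coloured by r. The block of Slc17a7, Camk2a, Neurod2, Neurod6, Tbr1 and Nrn1 has r from 0.634 to 0.930, the pairs with Slc17a6, Rspo2 or Etv1 have r from -0.129 to 0.620, and the rows of the GABAergic and oligodendrocyte lists are mostly negative.

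The common level of the 9 genes can be followed by mouse as the mean of their standardized values. It was lowest in Acute mouse 33 of the first batch (-1.89), Acute mouse 4 of the second (-1.52) and Chronic mouse 38 of the first (-1.38). In both Acute mice all 9 genes were below the mean of their batch, and in Chronic mouse 38 there were 8. The next lowest was a Water mouse, number 40 of the first batch (-0.88, 8 of 9 genes below). The highest were Water mice 42 and 43 of the first batch (1.06 and 1.04). Low values occurred in all 3 groups, and the 2 highest mice were both Water mice. The range was -0.88 to 1.06 in Water mice, -1.89 to 0.68 in Acute mice and -1.38 to 0.60 in Chronic mice, with medians of -0.12, 0.092 and 0.43.

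The lists of other cells moved with the members or against them. The relation of each member to the mean of each of 13 lists was computed. Of these 117 relations, 55 passed the adjusted threshold by Pearson's r and 47 by Spearman's rho. Counts for single lists are by r. The share of all genes that would pass with the same lists was not computed, so these counts have no background beside them. The mean of the 14 further pallial genes passed with the same 6 members, all positive (r from 0.774 to 0.922). The mean of 6 pan-neuronal genes, whose highest genes are Snap25 and Syt1, also passed with 6 members, all positive. Among these was Rspo2 (r = 0.617, rho = 0.4997, adjusted permutation p = 0.0050), but not Neurod2 (r = 0.433, adjusted permutation p = 0.0651). To the mean profile of the 9 members, Snap25 and Syt1 had r = 0.695 and 0.810, whereas Eno2 had 0.0081 and Tubb3 0.113. The GABAergic list, whose highest genes are the glutamate decarboxylases Gad1 and Gad2, passed with 7 members, all negative, of which Slc17a6 did not pass by rho (adjusted permutation p = 0.150). Of its 6 genes 5 had a negative r to the mean profile of the 9 members, and Dlx1 had 0.418. With Slc17a7 it had r = -0.803 and rho = -0.779 (permutation p = 1e-05 for each, adjusted p = 6.37e-05), with -0.831 and -0.760 in the batches and -0.723 without the 2 farthest mice. The oligodendrocyte list, which includes the myelin gene Mobp, passed with 6 members, all negative, of which Tbr1 did not pass by rho (adjusted permutation p = 0.0645). Its r with Slc17a7 was -0.833 and its rho -0.744, with -0.877 and -0.753 in the batches and -0.764 without the 2 farthest mice. In the 3 mice with the lowest members, Acute 33, Acute 4 and Chronic 38, the GABAergic list was above the batch mean by 0.37, 0.39 and 0.28 and the oligodendrocyte list by 0.60, 0.28 and 0.32 on the log2 scale. In Water mice 42 and 43, the highest, the GABAergic list was at -0.33 and -0.51 and the oligodendrocyte list at -0.42 and -0.60. The part of punch position or cell composition in the members' levels was not tested.

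Further lists were those of neighbouring structures and of other glial and vascular cells. The central amygdala list (highest genes Dlk1 and Prkcd) passed with 6 members, the thalamic list (Ntng1 and Rora) with 6, the striatal list (Ppp1r1b and Pde10a) with 5 and the endothelial list (Flt1 and Slco1a4) with 5, all negative. The astrocyte list (Aldoc and Slc1a3) passed with 2, the microglial list (highest gene Csf1r) with 1 and the choroid plexus list (Ttr and Kl) with 1, negative as well. The hippocampal list (Prox1 and C1ql2) and the list of claustral and deep cortical genes (Nr4a2 and Gnb4) passed with 2 each, both positive. By rho, fewer passed: 3 of the 6 with the central amygdala list (Camk2a, Tbr1 and Nrn1), 4 of the 5 with the endothelial list, 1 of the 2 with the astrocyte list, 1 of the 2 with the claustral and deep cortical list (Tbr1) and 0 of the 2 with the hippocampal list (adjusted permutation p = 0.0509 and 0.0592). Camk2a with the striatal list (rho = -0.498, adjusted permutation p = 0.0247) and Etv1 with the oligodendrocyte list (rho = -0.587, adjusted permutation p = 0.0050) passed by rho alone. Several of these lists were split by gene, and the relations are those of their means. To the mean profile of the 9 members, the thalamic genes Ntng1 and Rora had r = 0.467 and 0.138 whereas the other 4 were negative, down to -0.699 in Slitrk6. Of the central amygdala genes Dlk1 had -0.752 and Prkcd 0.026. Of the hippocampal genes Prox1 had -0.374 whereas C1ql2 had 0.455. In the claustral and deep cortical list, r ran from -0.701 in Foxp2 and -0.444 in Oprk1 to 0.814 in Ntng2. The 7 striatal genes were all negative, from -0.574 to -0.462. Endothelial relations of the 6 close genes were between -0.838 and -0.702 within the first batch and between -0.306 and 0.050 within the second, so they did not hold in both batches. Single relations were as follows. Tbr1 had r = 0.719 with the claustral and deep cortical list (rho = 0.631, adjusted permutation p = 0.00032) and -0.674 with the central amygdala list (rho = -0.652, adjusted permutation p = 0.00027). Slc17a6, which passed with neither the pallial nor the pan-neuronal nor the oligodendrocyte list, had r = -0.608 with the striatal list (rho = -0.574, adjusted permutation p = 0.00064) and -0.618 with the microglial list (rho = -0.530, adjusted permutation p = 0.0053). Etv1 had r = -0.590 with the striatal list (rho = -0.541, adjusted permutation p = 0.0059). The striatal list also passed with Nrn1 (r = -0.667), Neurod2 (-0.624) and Slc17a7 (-0.538), and the central amygdala list with Camk2a (-0.626) among others.

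**Figure D5:**
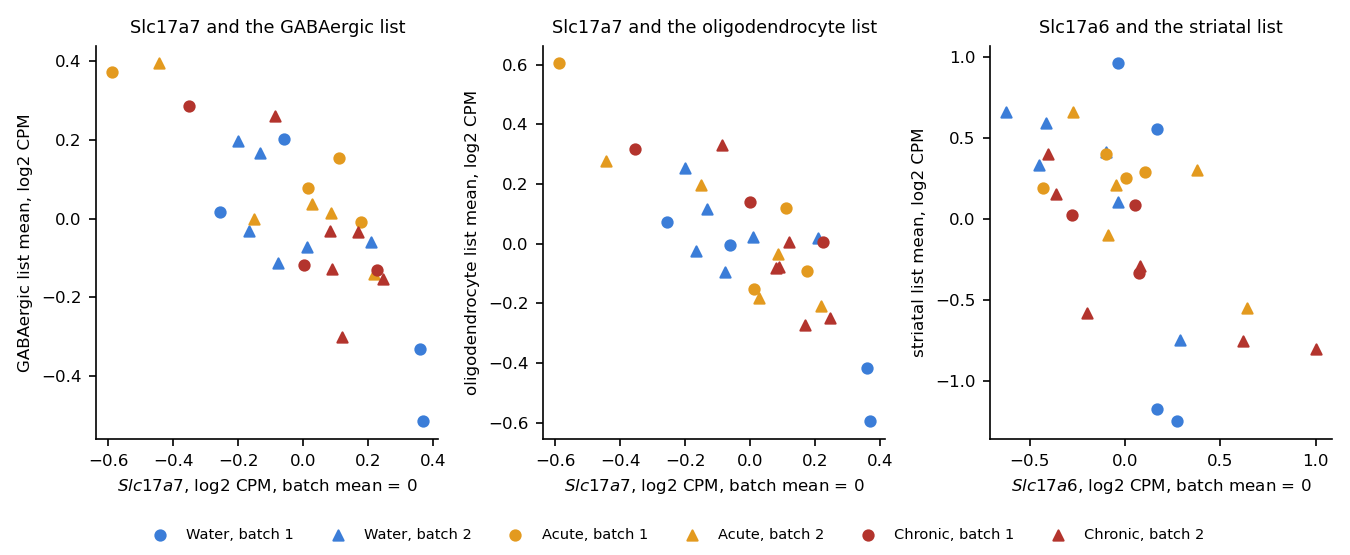
Mean log2 CPM of the GABAergic and oligodendrocyte lists against the log2 CPM of Slc17a7, and of the striatal list against Slc17a6, in the 28 mice, each with its batch mean set to 0 and with colours for the groups and symbols for the batches. Slc17a7 is lower where the GABAergic and oligodendrocyte lists are higher (r = -0.803 and -0.833), and mice of all 3 groups are spread along the lists.

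The levels of the lists overlapped between the groups. The summed CPM of the 6 GABAergic genes ran from 748 to 1322 (median 1072) in Water mice, 971 to 1544 (median 1157) in Acute mice and 903 to 1411 (median 1043) in Chronic mice. That of the 14 further pallial genes ran from 3102 to 3709 (median 3284), from 2561 to 3614 (median 3282) and from 2718 to 3645 (median 3443). None of the genes of the 13 lists was called by edgeR in any comparison. In Acute against Water the median log2 difference was 0.18 over the GABAergic, 0.25 over the central amygdala and 0.12 over the oligodendrocyte genes, beside -0.050 over the 9 members. In Chronic against Water these medians were 0.0076, 0.11 and 0.083, and that of the striatal genes was -0.37. The part of these shifts in the members' differences was not tested.

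Among the 16257 other genes, those whose levels followed the mean standardized profile of the 9 genes most closely over the 28 mice, as a description without a test, were Dlgap1 (r = 0.945), a postsynaptic scaffold, and Stum (0.941). They were followed by the GABA-B receptor subunit Gabbr2 (0.935), Sprn (0.929), the synaptic vesicle protein Sv2b (0.925), the syntaxin Stx1a (0.925), Olfm1 (0.924), the pentraxin receptor Nptxr (0.921), Cpne4 (0.917) and Mical2 (0.913). Of these, Sv2b is one of the 14 further pallial genes. The most opposed were Abat (-0.899), the enzyme that breaks down GABA, Apod (-0.866), a secreted lipid-binding protein, Gpr101 (-0.857), Zeb1 (-0.853) and Plekhb1 (-0.852). In each batch alone all 15 kept the sign of their r. Genes measured in the same punch share its library and its depth and are not independent replicates. The median r to the profile was 0.764 over the 14 further pallial genes, -0.709 over the GABAergic, -0.771 over the 5 oligodendrocyte and 0.027 over the 15 family genes, beside -0.015 over all genes. The family genes, which share sequence or pathway with the members, ran from -0.485 to 0.654, and Arpp21 was the lowest of the pallial genes with -0.205.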

How the data were processed

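Amygdala RNA of 28 mice from 2 batches of animals was sequenced, 1 library per mouse. The authors quantified reads with Salmon 0.14.1 after FastQC 0.11.8 against a GRCm38 transcriptome that included non-coding RNAs, used tximport and GENCODE M21 to obtain gene-level values, and deposited expected counts as whole numbers, before batch adjustment. The tables list 50051 and 51073 genes, and the 49477 genes in both were used.

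Genes whose mean count over the mice was 10 or more were tested in R 4.3.3 with edgeR 4.0.16 (quasi-likelihood test, TMM scaling, batch as covariate, all mice in 1 fit), with Benjamini-Hochberg adjustment over all genes and a threshold of 0.05. CPM and log2 values used a prior count of 2 where logged. Exact tests permuted labels within batch, and correlations used 100000 permutations within batch on log2 CPM with batch means removed. TPM used exon-union lengths. Alternatives were DESeq2 1.42.0, limma 3.58.1 (voom), ComBat-seq (sva 3.50.0), other scalings and filters, single batches and leaving out each mouse. Simulated counts for Chronic against Water covered 16266 genes. In them, 76 of 100 genes changed by 0.5 on the log2 scale were found, and 91 of 100 changed by 1. Recovery was not measured for the members alone. With batch removed, their SD of the log2 level ran from 0.153 (Camk2a) to 0.375 (Slc17a6), above the median of all genes, 0.1399. The simulated shares therefore do not tell how often such a change would be found in a member.

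Named were all 9 genes, the 3 smallest p per related list and comparison, the 10 most like and 5 most opposed genes, and, of marker lists, the 2 highest genes and those below the filter. Members and lists were chosen with earlier results of these data known. Arpp21, Eno2, Tubb3, Dlx1, Slitrk6, Foxp2, Oprk1, Ntng2 and the 6 close genes were singled out after their values were seen. Some genes that this rule would name are not reported here.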

Additional observations from a re-analysis of the deposited data

Results flagged for a closer look

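Within each group and gene, the highest and the lowest of the 9 or 10 mice were compared with their nearest neighbour by Dixon's ratio, on log2 CPM with the batch mean removed. Of 27 combinations of 9 genes and 3 groups, 2 exceeded the 95% critical value, which chance does in about 1 in 20. Both were the same mouse, Chronic 38 of the first batch. Its Neurod6 was at -0.459 (52.9 CPM), with the next Chronic mouse at -0.095, and its Tbr1 was at -0.607 (45.0 CPM), with the next at -0.058. The ratios were 0.543 and 0.664 beside a critical value of 0.493 for 9 mice. In this mouse 8 of the 9 genes were below the mean of the batch, and the oligodendrocyte and GABAergic lists were above it by 0.32 and 0.28; their part in the low values was not tested.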

How the results depend on the processing

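None of the 9 genes passed the adjusted threshold in any of the 3 comparisons under the alternatives tried, leaving out each mouse included. Counts over all genes moved. For Acute against Water (0 genes in edgeR), DESeq2 called 9, limma-voom 3, ComBat-seq with DESeq2 30 and edgeR with no filter 1. For Chronic against Water (3 genes), DESeq2 called 38, ComBat-seq with DESeq2 88 and the first batch alone 0. For Chronic against Acute (0 genes), limma-voom and the fit with no filter called 1 each. The difference between batches of the Chronic effect (1 gene) fell to 0 with RLE size factors. Leaving out 1 mouse at a time gave from 0 to 2 genes for Acute, from 2 to 6 for Chronic, and from 0 to 1 for the difference between batches of either effect. ComBat-seq with DESeq2 also called Camk2g in Chronic against Water (adjusted p = 0.0333).

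Small estimates changed sign, with no call in either direction. Under limma-voom, Acute against Water was 0.012 for Slc17a7, 0.0036 for Neurod6 and 0.040 for Nrn1, and Chronic against Acute -0.0020 for Etv1. Under ComBat-seq, Slc17a6 was -0.0099 in Acute. In the first batch alone, Slc17a6 was -0.24 in Acute; Chronic against Water was -0.15 for Slc17a7, -0.19 for Slc17a6, -0.14 for Camk2a, -0.24 for Neurod2, -0.11 for Neurod6, -0.037 for Rspo2, -0.16 for Nrn1, -0.052 for Etv1 and -0.15 for Nrgn; and Chronic against Acute was -0.046 for Neurod6, -0.099 for Etv1 and 0.023 for Nrn1l. In the second batch alone, Acute was 0.016 for Slc17a7, 0.048 for Nrn1 and -0.011 for Etv1, and Chronic against Acute was 0.015 for Rspo2 and 0.0014 for Lgr6.

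Leaving out 1 mouse at a time, the estimates ran in Acute from -0.081 to 0.0076 for Neurod6, from -0.092 to 0.020 for Nrn1 and from -0.036 to 0.065 for Etv1; in Chronic from -0.0062 to 0.051 for Camk2a, from -0.026 to 0.087 for Neurod2, from -0.030 to 0.066 for Neurod6, from -0.012 to 0.084 for Rspo2 and from -0.022 to 0.065 for Etv1; in Chronic against Acute from -0.069 to 0.18 for Slc17a6, from -0.0024 to 0.14 for Tbr1 and from -0.027 to 0.036 for Etv1; and from -0.087 to 0.20 for the difference between batches of Rspo2 in Chronic mice.

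Of the 36 pairs, 20 passed; within the second batch 12 did and in Water mice alone 3, with fewer mice in both. Leaving out 1 mouse gave from 17 to 22 pairs, the lowest without Acute mouse 4 and the highest without Water mouse 3, both of the second batch. The r of Slc17a7 and Slc17a6 was -0.031 in Water mice centred on their own batch means (0.193 when centred on the batch means of all mice), that of Slc17a6 and Rspo2 was 0.043 in the first batch and from -0.23 to 0.023 without single mice, that of Slc17a6 and the central amygdala list 0.37 in Water mice (0.023 with the other centring), and that of Tbr1 and the endothelial list 0.050 in the second batch. The causes of these shifts were not tested.

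Replicate numbers repeat across groups in the second batch, and the labels do not say that they pair mice. The 16 pairs with the same number had correlations of their deviations from -0.346 to 0.338, of which 4 were over 0.1. The 80 pairs with different numbers ran from -0.364 to 0.422, of which 26 were over 0.1. Whether mice with the same number shared any handling was not tested. With the replicate number as a block, 0, 3 and 0 genes were called in the 3 comparisons, none of them a member, and Etv1, Chronic against Acute, was at -0.0038.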
